A study of Mus musculus with 2 samples.

Results

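The WHITEHEAD transcripts are the spliced transcripts of a pooled transcript list from mouse embryonic stem cells whose names start with WHITEHEAD. They were chosen by that name alone, and the list holds 3352 of them among 110003 transcripts. Merging those on 1 strand whose spans overlap gave 1293 WHITEHEAD loci. The RNA came from V6.5 embryonic stem cells, a pluripotent mouse line grown on irradiated embryonic fibroblasts, and was made into 1 polyadenylated library and 1 library of total RNA depleted of ribosomal RNA. The list gives no value per library and no read count, so depth is unknown and the libraries were not compared. The other names start with BROAD (7697 transcripts), FT (11825) or U (87129), and the sources used here do not explain these prefixes. Loci are features of 1 list and not replicates, so nothing was tested, and the Wilson 95% intervals cover counting error only. Positions are on mm9.

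Long noncoding RNAs are transcribed by RNA polymerase II, and many are capped, spliced and polyadenylated like messenger RNAs but carry no long open reading frame. Splicing removes introns between a donor site at the 5′ end of the intron and an acceptor site at its 3′ end, and joining 1 donor to different acceptors, or passing over an exon, gives several RNAs from 1 locus. Many noncoding RNAs of embryonic stem cells start near the promoter of a coding gene and run away from it, an arrangement called divergent transcription.

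Internal exons of matched genes are shown first, because intron and exon lengths are what tied WHITEHEAD transcripts to named genes. Each sequence is from the GENCODE M21 transcript whose exon and neighbouring introns have the lengths of the WHITEHEAD ones, 5′ to 3′, with the exon in capitals and 15 bases of each joined exon in lower case. The 8 exons are from Gm19705, Platr14, Platr11, Firre, Crnde, Gm11457, Gm5091 and Pvt1, which are described below, and each is, of those up to 200 nt, the exon in the most matched WHITEHEAD transcripts of its gene.
Gm19705: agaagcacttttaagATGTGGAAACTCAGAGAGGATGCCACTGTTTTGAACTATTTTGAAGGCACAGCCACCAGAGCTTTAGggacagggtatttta
Platr14: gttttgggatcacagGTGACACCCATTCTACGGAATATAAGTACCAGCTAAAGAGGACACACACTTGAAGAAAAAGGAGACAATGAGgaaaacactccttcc
Platr11: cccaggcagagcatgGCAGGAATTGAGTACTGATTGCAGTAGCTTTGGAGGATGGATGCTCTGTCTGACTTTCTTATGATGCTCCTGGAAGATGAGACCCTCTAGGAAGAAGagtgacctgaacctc
Firre: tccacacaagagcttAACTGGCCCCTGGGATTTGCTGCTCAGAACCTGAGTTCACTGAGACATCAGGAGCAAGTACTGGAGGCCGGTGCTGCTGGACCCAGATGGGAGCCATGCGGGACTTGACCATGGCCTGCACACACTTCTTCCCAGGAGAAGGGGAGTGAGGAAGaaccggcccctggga
Crnde: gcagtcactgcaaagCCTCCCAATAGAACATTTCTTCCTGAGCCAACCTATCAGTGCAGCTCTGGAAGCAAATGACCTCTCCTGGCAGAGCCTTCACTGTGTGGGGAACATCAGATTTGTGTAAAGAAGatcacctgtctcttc
Gm11457: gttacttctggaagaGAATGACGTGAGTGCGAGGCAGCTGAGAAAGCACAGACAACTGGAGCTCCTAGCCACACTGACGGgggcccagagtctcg
Gm5091: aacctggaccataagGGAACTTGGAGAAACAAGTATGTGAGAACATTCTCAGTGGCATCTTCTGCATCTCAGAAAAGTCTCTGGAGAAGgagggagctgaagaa
Pvt1: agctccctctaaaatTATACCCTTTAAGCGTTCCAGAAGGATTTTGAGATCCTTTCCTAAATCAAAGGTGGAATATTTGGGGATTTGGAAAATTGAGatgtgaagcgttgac

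In WHITEHEAD transcripts these exons lay at chr1:138585321-138585387 on the plus strand (Gm19705), chr2:104408018-104408089 on the plus strand (Platr14), chr9:118313848-118313944 on the minus strand (Platr11) and chrX:47920717-47920870 on the minus strand (Firre). The exons of Crnde at chr8:94870249-94870362, of Gm11457 at chr2:164588044-164588108 and of Gm5091 at chr17:15370893-15370966 were on the minus strand, and that of Pvt1 at chr15:62007022-62007103 was on the plus strand. The Crnde exon was present in 20 of the 20 transcripts of its locus. Use of the other exons was less uniform. The Gm11457 exon was present in 25 of 44 transcripts and passed over in 5, and the Gm5091 exon was present in 14 of 17 and passed over in 2. The Pvt1 exon, present in 4 of 11 transcripts, lay between introns of 68001 and 66625 bp.

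Most WHITEHEAD loci were small and simple, and a few held a large part of the transcripts. A single transcript made up 912 loci (70.5%, 68.0 to 73.0%), while 25 loci with 10 or more transcripts held 1376 transcripts (41.1%). An unnamed locus on the plus strand of chromosome 13 held 590 transcripts, or 17.6% of all. Counts per transcript therefore describe that locus more than any other, and counts per locus are mostly used below. Of the 479 transcripts with 8 or 9 exons, 444 were from it.

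**Figure D1:**
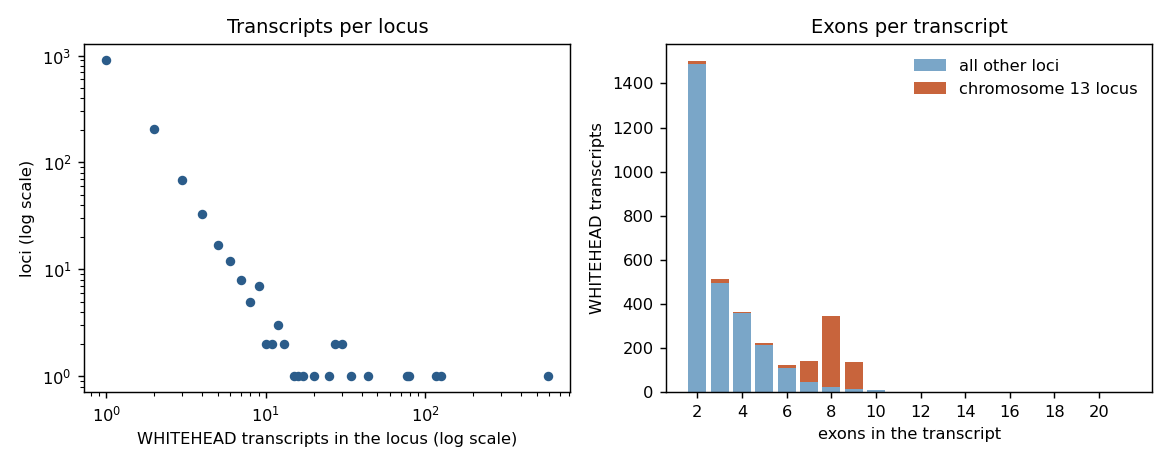
Left, number of WHITEHEAD loci (y axis, log scale) against the number of transcripts in the locus (x axis, log scale), 1 point per number of transcripts. Right, number of WHITEHEAD transcripts by exons per transcript, with those of the chromosome 13 locus stacked in orange. The 912 single-transcript loci are the point at the upper left, the locus with 590 transcripts is the point at the far right, and 444 of the 479 transcripts with 8 or 9 exons are orange.

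All WHITEHEAD transcripts were spliced, and 1504 (44.9%) had 2 exons. Per locus, 987 had no transcript with more than 2 exons and 306 (23.7%, 21.4 to 26.1%) had a transcript with 3 or more. Among BROAD loci, which were all spliced too, 12.8% (11.9 to 13.8%) reached 3 exons, and among the multi-exon loci of FT and U the shares were 56.3% and 45.4%. Loci with more exons were longer. The median span was 1586 bp with 2 exons, 4847 bp with 3, 7375 bp with 4 and 16097.5 bp with 5 or more, and the median exonic length of the transcript with the most exons went from 326 to 541, 683 and 1058.5 nt.

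The score that the authors deposited for each transcript, a whole number that the sources used here do not explain, was higher for loci with more exons. The median of the highest score per locus was 4 with 2 exons, 20 with 3, 39 with 4 and 90 with 5 or more. Score and exon number are each the highest over the transcripts of a locus, so both can rise with the number of transcripts. The 2492 distinct introns had a median length of 1157 bp (quartiles 422 and 3263.5 bp), and ranged from 52 to 464911 bp. The longest intron lay in a minus-strand locus at chr13:65861959-66337387 with 3 transcripts and scores of 1 and 2. Internal exons, 714 in all, had a median of 124 nt (quartiles 84 and 169 nt).

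The chromosome 13 locus with 590 transcripts (chr13:98252791-98285631) was built from few parts. Its transcripts combined 30 introns and 20 internal exons, with 20 donors and 20 acceptors, and 6 donors were joined to several acceptors. Exonic length ran from 260 to 9617 nt and the score from 1 to 963. Of its 30 introns, 11 were in BROAD transcripts, 2 in U and 0 in FT. No transcript of the locus matched an annotated gene.

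The locus of Gm19705, a long noncoding RNA gene on chromosome 1, held the next most transcripts. This locus (chr1:138567382-138587383) had 125 transcripts from 16 introns, and 23 of the transcripts matched Gm19705. Those had up to 7 exons against 5 in the annotation, and 11 of the 16 introns were also in BROAD. The locus of Platr14 on chromosome 2 (chr2:104399387-104411588) had 116 transcripts from 12 introns, with scores from 5 to 783. Of these transcripts 23 matched Platr14. The Platr genes were named as pluripotency-associated transcripts. The locus of Platr11 on chromosome 9 (chr9:118287410-118315223) had 79 transcripts from 14 introns, in which 5 donors met 13 acceptors. Only 7 of the 79 matched Platr11.

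The fifth locus stood apart in what it shared. A minus-strand locus of 5834 bp at chr17:39979944-39985777 held 77 transcripts from 15 introns of 82 to 1931 bp, and none of the 15 introns was in BROAD, FT or U. Its scores ran from 1 to 642 with a median of 8. The nearest matched genes lay 2657268 bp to the left and 3297212 bp to the right, and the locus matched no gene itself. No annotation of ribosomal RNA genes or repeats on mm9 was used here, so what this locus is remains undetermined, and its 77 transcripts and 15 introns are counts of listed structures. Whether they are spliced RNAs of a gene was not tested.

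**Figure D2:**
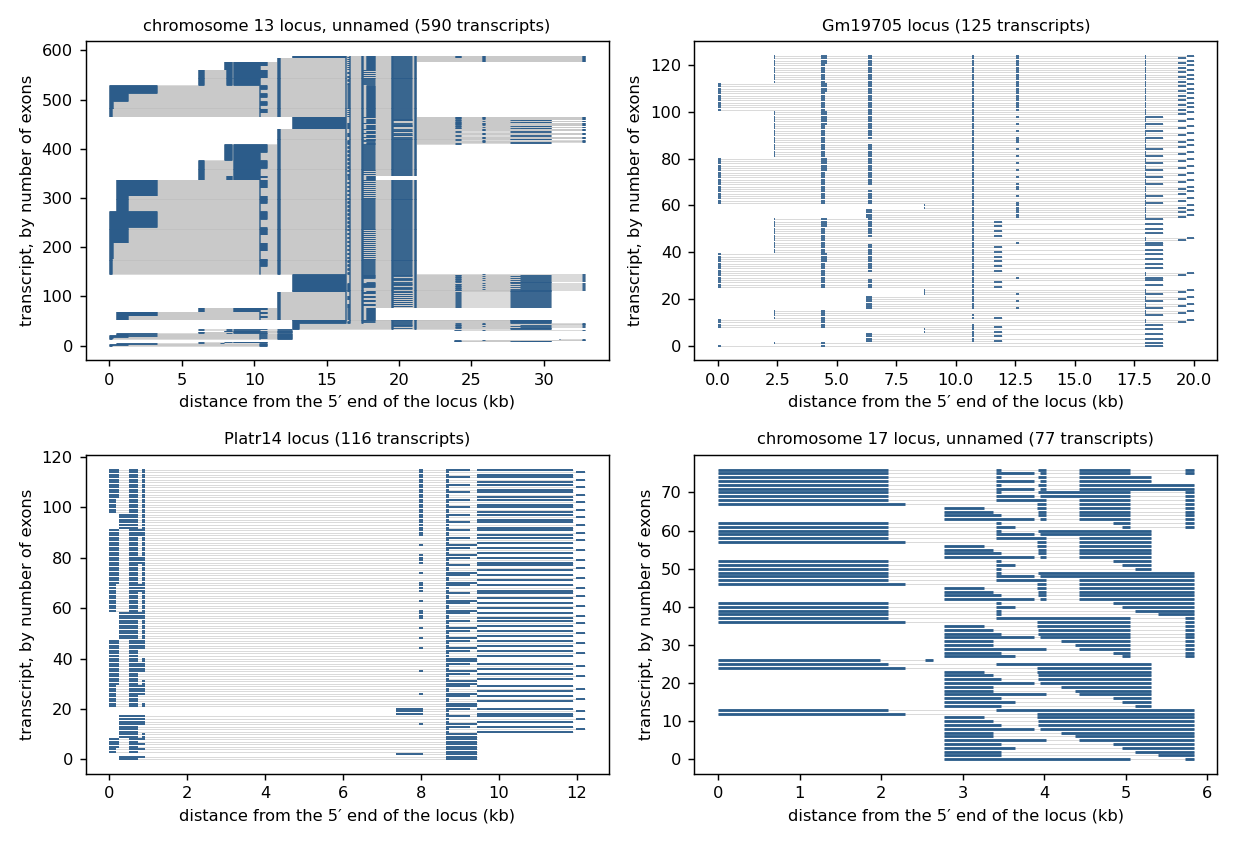
Exon models of the WHITEHEAD transcripts in 4 of the 5 loci with the most transcripts (the Platr11 locus is not drawn), 1 row per transcript ordered by number of exons (y axis), with exons in blue and introns in grey, against the distance in kb from the 5′ end of the locus (x axis). The panels hold 590, 125, 116 and 77 transcripts, drawn from 30, 16, 12 and 15 introns, so vertical alignments of exon ends recur across rows.

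Alternative splicing was seen in many of the loci with 2 or more distinct introns. Of 417 loci with 2 or more distinct introns, 174 (41.7%, 37.1 to 46.5%) had a donor joined to several acceptors and 187 (44.8%, 40.1 to 49.6%) had an acceptor joined to several donors. A skipped internal exon was seen in 60 of these loci (14.4%), and 89 of the 714 internal exons were skipped in another WHITEHEAD transcript of the locus. Another 259 transcripts repeated the introns of a second WHITEHEAD transcript and differed from it only at the ends. The 417 loci include some with 1 transcript, such as Rnf212b with 14 introns, which cannot show an alternative. They also include 2-exon loci that count only because their transcripts differ in introns. The shares are therefore not rates among loci able to show alternative splicing.

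By span, 609 of the 1293 WHITEHEAD loci (47.1%) were overlapped on the same strand by BROAD, 659 (51.0%) by U and 315 (24.4%) by FT. By exact introns BROAD shared the most. Of the 2492 introns, 1022 (41.0%) had both ends and the strand of a BROAD intron, 706 (28.3%) of a U intron and 295 (11.8%) of an FT intron. Any of them was shared by 1203 (48.3%, 46.3 to 50.2%), and 210 (8.43%) were in all 4 sets. Sharing went with exon number. A shared intron was present in 274 of 306 loci with 3 or more exons (89.5%, 85.6 to 92.5%) and in 307 of 987 loci with 2 exons (31.1%, 28.3 to 34.1%). A locus counted when any of its introns was shared, so loci with more introns had more chances to count. No shared intron was present in 680 of the 987 WHITEHEAD 2-exon loci. The same held for 3458 of 4213 2-exon loci in BROAD, 4978 of 6455 in U and 503 of 1827 in FT. Lack of a shared intron was therefore not particular to WHITEHEAD 2-exon loci. Each set was compared with the others, which differ in size, so these counts are only roughly comparable.

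Sharing also went with the score. Loci whose highest score was 1 shared an intron in 27 of 199 cases (13.6%, 9.495 to 19.02%), those with 2 to 9 in 186 of 603 (30.85%, 27.3 to 34.6%) and those with 10 or more in 368 of 491 (74.95%, 70.9 to 78.6%). Exon number and score rose together, and their separate parts in sharing were not tested. As whole intron chains, 460 of 3093 from WHITEHEAD (14.9%) were present unchanged in BROAD. Chains are not counted per locus, so loci with many transcripts weigh more, and the share without the chromosome 13 locus was not counted. In these 460 the WHITEHEAD score was higher in 218 and the BROAD score in 228.

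**Figure D3:**
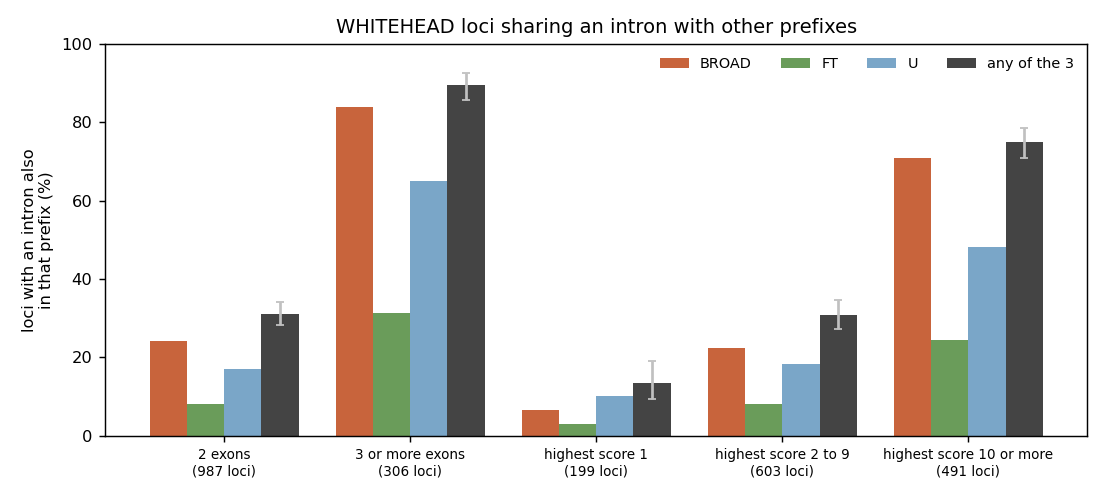
Percentage of WHITEHEAD loci with at least 1 intron also present in BROAD, FT, U or any of them (y axis, from 0), by exons per locus and by the highest score of the locus (x axis, with the number of loci). Grey error bars are Wilson 95% intervals for any prefix. The bar for any prefix is at 31.1% for 2 exons and 89.5% for 3 or more, and goes from 13.6% at score 1 to 74.95% at 10 or more.

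Where an intron was shared, the WHITEHEAD locus usually began further inside. Its 5′ end was shorter than that of the BROAD transcripts in 346 of 496 loci (median difference -97.5 bp), than that of FT in 140 of 175 (median -97 bp) and than that of U in 291 of 366 (median -141.5 bp). At the 3′ end it was shorter in 297 of 496, 114 of 175 and 254 of 366. Starts of WHITEHEAD loci are therefore given here as the starts of the listed transcripts and not as promoters.

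The 2-exon loci without a shared intron were unevenly split between the strands. Of 680 such loci, 516 (75.9%, 72.5 to 78.95%) were on the minus strand. The 307 WHITEHEAD 2-exon loci with a shared intron had 135 (44.0%, 38.5 to 49.6%) there, and the 306 loci with 3 or more exons had 145 (47.4%, 41.9 to 53.0%). In BROAD, 2-exon loci with no intron in another set were on the minus strand in 47.7% of 3458 cases. The same class was at 51.5% of 503 loci in FT (47.1 to 55.8%) and at 49.2% of 4978 in U (47.9 to 50.6%). All 20 chromosomes had more than 50% of these WHITEHEAD loci on the minus strand, from 62.8% on chromosome 11 to 87.5% on chromosome 14.

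Very short end exons moved with this imbalance. An end block under 10 nt was present in 157 of the 516 minus-strand loci (30.4%) and in 15 of the 164 plus-strand loci (9.15%). Over all 2-exon transcripts, 210 of 1504 WHITEHEAD (14.0%) and 12 of 5175 BROAD (0.232%) had such a block. Without those loci 359 of 508 (70.7%, 66.6 to 74.5%) remained on the minus strand. The median intron length was 1011 bp on the minus strand (quartiles 461.8 and 1695 bp) and 1170 bp on the plus strand (quartiles 301.8 and 3702.8 bp). The share of loci with a highest score of 1 was 25.6% on the minus strand and 24.4% on the plus strand. Loci whose span was overlapped by another set were at 61.8% (136 of 220) and those not overlapped at 82.6% (380 of 460). Only 2 WHITEHEAD loci of all 1293 had an intron that another set lists on the other strand. The part of short end blocks in the imbalance was not tested beyond these counts, and the imbalance was noticed after the data were examined.

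**Figure D4:**
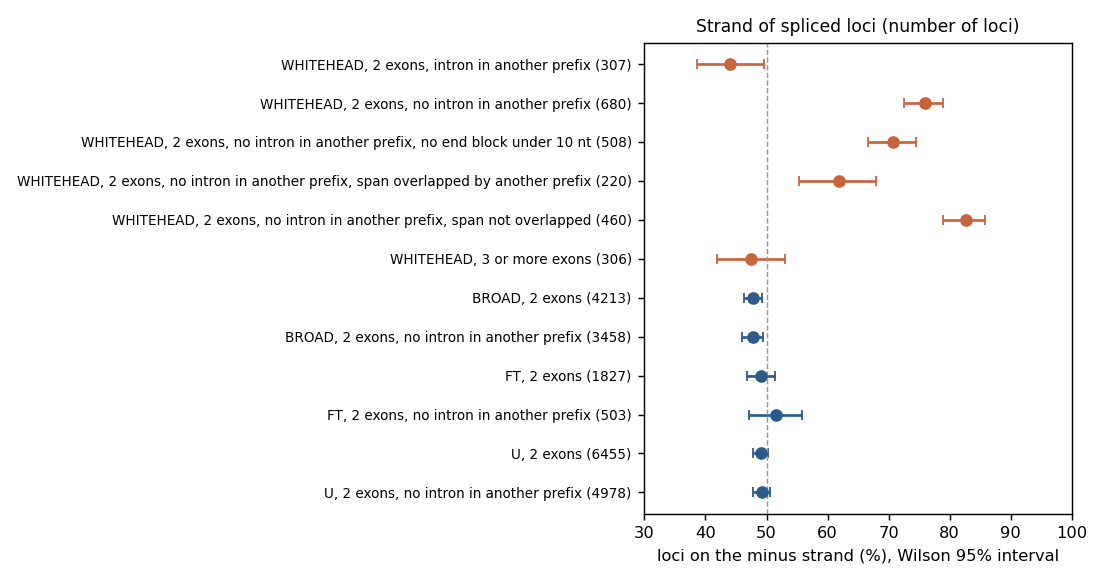
Percentage of spliced loci on the minus strand (x axis), with Wilson 95% intervals, for classes of WHITEHEAD loci (orange) and of BROAD, FT and U loci (blue). The number of loci is in parentheses and the dashed line is at 50%. The 680 unshared WHITEHEAD 2-exon loci are at 75.9%, and the same class of the other prefixes is between 47.7% (BROAD) and 51.5% (FT).

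No other set overlapped the span of 476 WHITEHEAD loci on the same strand (36.8%). The same share was not counted for BROAD, FT or U loci, so 36.8% cannot be called high or low. These 476 loci held 589 transcripts, had a median span of 1447.5 bp and a median highest score of 3. A highest score of 1 was found in 129 of them (27.1%) and in 70 of the 817 overlapped loci (8.57%). Among the 476 loci 16 had 3 or more exons. The plus-strand locus at chr10:44162538-44166429, with 5 transcripts of up to 4 exons, and the plus-strand locus at chr8:87437219-87446938, with 5 transcripts of up to 3 exons, had the most transcripts of the 16. The second had 3 introns with the lengths and spacing of introns of Dnase2a, a coding gene for a DNase, by the match of 2 introns that was added after seeing the data. Both loci were singled out after their values were seen.

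Facing starts on opposite strands were about as frequent as in the whole list. A head-to-head partner, a locus of any prefix on the other strand whose 5′ end faced the WHITEHEAD 5′ end at 0 to 2000 bp, was found for 69 loci (5.34%, 4.24 to 6.70%). The same share was 5.16% of all loci of the list and 4.94% of its multi-exon loci. Loci of the whole list were merged over all prefixes, while WHITEHEAD loci have the ends of WHITEHEAD transcripts alone, so the comparison is approximate. With 2 exons 49 of 987 loci (4.97%) had such a partner, and with 3 or more 20 of 306 (6.54%, 4.27 to 9.88%). Facing 3′ ends within the same distance were found for 56 loci (4.33%, 3.35 to 5.58%), against 6.15% of all loci.

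In 3 head-to-head pairs both loci were WHITEHEAD. The locus of E130202H07Rik, a long noncoding RNA on chromosome 14, faced an unnamed 2-exon locus at 552 bp. It held 16 transcripts, of which 2 matched the gene. The locus of Gm5091 on chromosome 17, with 17 transcripts of which 7 matched the gene, faced an unnamed 2-exon locus at 745 bp. On the X chromosome 8030474K03Rik (8 exons) and Gm4779 (6 exons), both annotated as coding, faced each other at 1411 bp.

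Overlap with a locus on the other strand was seen for 239 WHITEHEAD loci (18.5%, 16.5 to 20.7%). For loci of the list, again merged over all prefixes, it was 8.78% of all and 18.8% of the multi-exon ones. The share was 14.6% (144 of 987) with 2 exons and 31.05% (95 of 306, 26.1 to 36.4%) with 3 or more, and the second group also had longer spans. When exons had to overlap, 138 loci (10.7%) were left.

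Names could be given to a minority of the transcripts. Runs of intron, exon and intron lengths were looked up in GENCODE M21 on the chromosome and strand of the transcript. They matched 428 of 1848 WHITEHEAD transcripts with 3 or more exons (23.2%, 21.3 to 25.1%), against 57.4% in the whole list. In BROAD the share was 33.1% (31.3 to 34.9%), in U 61.9% and in FT 88.2%. The chromosome 13 locus, whose 590 transcripts had no match, lowers the WHITEHEAD share per transcript. Only 14 of the 590 had 2 exons, so the rest are all among the 1848. The share without this locus is not given here. The lower share than in BROAD therefore cannot be taken as a trait of WHITEHEAD transcripts beyond this 1 locus. The annotation of the other strand gave 0 matches. Per locus the WHITEHEAD share was higher, with a match in 162 of 306 loci with 3 or more exons (52.9%, 47.4 to 58.5%). The matches named 155 genes, of which 47 were lincRNA, 39 protein-coding, 32 antisense, 24 processed transcript, 2 bidirectional promoter and 11 pseudogene genes. Protein-coding genes were 25.2% of them, against 8.37% of the genes matched in the whole list. Most of these coding genes also had matched BROAD transcripts, such as Btbd19 with 58 and Rnf213 with 9. The coding share of BROAD alone is not given here, so the difference cannot be called particular to WHITEHEAD.

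Most of the named genes also had transcripts of other prefixes. All 4 prefixes matched 55 of the 155 genes, and 53 were matched by all but FT. By the rule of at least 3 exons, WHITEHEAD transcripts were the sole match for 9 genes. These were Gm26564, E130202H07Rik, Gm16048, Gm31597, Gm35315, Gm43803, Gm45752, Gm7896 and Zfp125. All of them except Gm16048 and Zfp125 had an intron that was also in BROAD, 2 of 3 for Gm26564. A sole match therefore does not mean that the other prefixes lack the gene. Gm26564 had 4 exons and a highest score of 155, and Zfp125, a zinc finger pseudogene, had 3 exons and a score of 2.

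Coding genes were represented by partial structures. In 31 of 39 (79.5%, 64.5 to 89.2%) the longest WHITEHEAD transcript had fewer exons than the annotated gene. Rnf213, a large ubiquitin ligase gene on chromosome 11, had 21 of 67 exons, Vwa3b on chromosome 1 had 9 of 25, 1520401A03Rik on chromosome 17 had 8 of 41 and BC067074 on chromosome 13 had 8 of 10. Rnf212b, a gene of meiotic recombination on chromosome 14, had 15 of 16 exons. Lrrc31, a leucine-rich repeat gene on chromosome 3, had 24 matched transcripts with up to 10 exons against 9 in the annotation, and Btbd19, a BTB domain gene on chromosome 4, had 24 with up to 9 against 8. Apela on chromosome 8, which encodes a small secreted peptide known from embryonic stem cells, had 1 transcript with 3 of 4 exons and a score of 681, and was picked after its values were seen. For noncoding genes 48 of 105 (45.7%) had fewer exons than annotated and 12 had more.

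The longest spans of matched transcripts belonged to noncoding genes. Pvt1 spanned 211492 bp and D030068K23Rik, a long noncoding RNA on chromosome 8, spanned 175987 bp with 8 matched transcripts of up to 7 exons and an intron of 147389 bp. Gm5091, Firre and Gm15286 spanned 84451, 79385 and 64464 bp. The antisense gene 0610040F04Rik on chromosome 6 was among the 10 genes with the most matched transcripts, with 10 over 18190 bp, up to 6 exons against 7 annotated and a highest score of 215.

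Of the noncoding genes on the embryonic stem cell and early development list, 10 of 30 that could be matched had a WHITEHEAD transcript. The same share over all matchable noncoding genes was 2.01% (105 of 5231). Any prefix matched 22 genes of this gene list, and 3.19% of all noncoding genes so matched (105 of 3293) had a WHITEHEAD transcript. This gene list and those below were chosen with earlier results of these data known, so such contrasts are not independent of the data. The 10 genes were Platr3, Platr7, Platr10, Platr11, Platr14, Platr20, Platr21, Platr28, Halr1 and Bvht, while 12 others of the list were matched by other prefixes alone. Platr3 on chromosome 2 had 3 transcripts of up to 4 exons and a highest score of 279, and Platr7 on chromosome 10 had 2 of up to 5 exons and a highest score of 23. Halr1, which lies beside the Hoxa cluster on chromosome 6, had 3 transcripts and a highest score of 51. Bvht, known for its part in cardiac commitment, had 2 transcripts and a highest score of 181. Platr20, Platr21 and Platr28 had 3, 3 and 2 transcripts with highest scores of 61, 34 and 43. Platr10 was at the low end, with 1 transcript and a score of 2.

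Firre was 1 of 5 matchable genes on the X inactivation list, against 2.01% of all matchable noncoding genes. This X-linked RNA, known for its repeats and for a role in nuclear organisation, had 17 matched WHITEHEAD transcripts in 2 loci, and 133 in BROAD, 2 in FT and 8 in U. Its transcripts had at most 6 exons against 20 annotated, and the larger locus (chrX:47908928-47968694) held 34 transcripts from 31 introns, of which 19 were in BROAD. Of 7 matchable imprinted noncoding genes 0 had a WHITEHEAD transcript, and with 2.01% over all noncoding genes that count is no result about imprinted genes.

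The highest scores belonged to short spliced genes, including small nucleolar RNA hosts. Snhg8 on chromosome 3, a small nucleolar RNA host gene, had 1 transcript of 316 nt with a score of 2637, and Snhg6 on chromosome 1, another host gene, had 5 matched transcripts with a highest score of 1995. Epb41l4aos, with 3 exons in 1007 bp, had 1 matched transcript with a score of 3166, the highest of all WHITEHEAD transcripts. These were 2 of the 16 host genes on the list that could be matched, beside 2.01% of all matchable noncoding genes.

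Of 15 matchable genes on a list of other well-known noncoding RNAs, 5 had a WHITEHEAD transcript, Epb41l4aos among them, against 2.01% of all matchable noncoding genes. The other 4 had scores of 100 or less. Pvt1, the neighbour of Myc on chromosome 15, had 7 matched transcripts over 211492 bp and a highest score of 100, and 152 in BROAD. Crnde on chromosome 8 had 19 and a highest score of 73, and 20 in BROAD. Neat1, the scaffold of paraspeckles, had 1 transcript with a score of 37, and Tug1 1 of 4200 nt with a score of 58. WHITEHEAD transcripts matched 39 of 18570 matchable coding genes (0.21%), and 0 of the 27 pluripotency, 22 lineage and 14 housekeeping genes that could be matched. Those counts of 0 are near the share over all coding genes and show nothing particular to the lists. The 4 stem cell and 5 fibroblast markers that could be matched were at 0 too, so the labelled cell type and the share of feeder RNA cannot be read from these transcripts.

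Divergence from a coding gene, read within the annotation, was frequent among the noncoding genes matched by WHITEHEAD transcripts. A transcript of 33 of 105 such genes (31.4%, 23.3 to 40.8%) started up to 2000 bp upstream of a coding start on the other strand. The share was 15.4% over all 3293 noncoding genes matched in the list and 13.2% over all that could be matched. For the 3188 genes matched without a WHITEHEAD transcript it was 14.9% (13.7 to 16.2%). The median distance between the starts was 141 bp, and 23 of the 33 pairs were under 250 bp apart. With only the outermost start of each gene counted, 17 of 105 (16.2%) were divergent, against 8.90% in the list.

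The divergent genes with the most WHITEHEAD transcripts faced coding genes of several kinds. Crnde lay 1505 bp from Irx5, a homeobox gene, and Gm11457 232 bp from Ube2c, a ubiquitin-conjugating enzyme of mitosis. Gm14230 started 115 bp from Tgif2, a homeobox repressor of TGF-beta signalling, 5530601H04Rik 147 bp from Pbdc1, and AI480526 527 bp from Setd1b, a histone H3 lysine methyltransferase. Closest of the 10 were D130020L05Rik at 15 bp from Ppp4r3a, a phosphatase subunit gene, and 4933439C10Rik at 24 bp from Zkscan17, a zinc finger gene. Gm2694 lay 203 bp from Cbln1, 2010001A14Rik 220 bp from Sap30l, and Platr20 55 bp from Gm12569. Setd1b itself also had 3 matched WHITEHEAD transcripts, with 6 of 17 exons at most. Divergent genes had a median highest score of 35 and the 72 others 39.

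**Figure D5:**
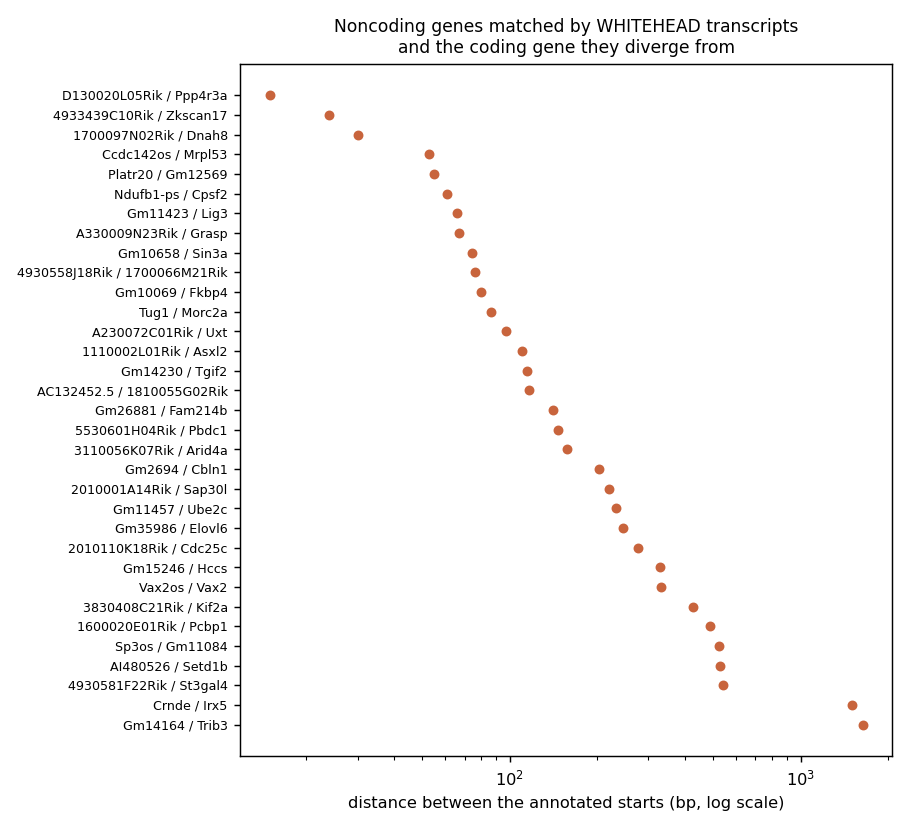
Distance in bp (x axis, log scale) between the annotated starts of each of the 33 divergent noncoding genes matched by WHITEHEAD transcripts and the coding gene on the other strand (y axis, noncoding gene first), ordered by distance. The points run from 15 bp (D130020L05Rik and Ppp4r3a) to 1637 bp (Gm14164 and Trib3), with 23 of 33 under 250 bp.

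The bases between both starts are shown for 4 pairs, because a divergent pair is transcribed outward from both sides of this stretch. They are from RefSeq (GRCm38.p6), read 5′ to 3′ on the strand of the noncoding gene, which is the minus strand for all 4. Capitals mark CCAAT or GGGCGG on either strand (ATTGG and CCGCCC are their other-strand forms), and these matches do not overlap each other.
Platr20 and Gm12569: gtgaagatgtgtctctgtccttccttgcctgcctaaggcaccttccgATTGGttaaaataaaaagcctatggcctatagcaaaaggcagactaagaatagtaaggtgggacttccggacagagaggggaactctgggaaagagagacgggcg
2010001A14Rik and Sap30l: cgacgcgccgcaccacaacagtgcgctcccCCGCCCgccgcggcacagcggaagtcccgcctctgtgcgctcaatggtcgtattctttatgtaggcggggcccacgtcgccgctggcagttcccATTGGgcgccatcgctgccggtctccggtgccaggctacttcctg
Gm10658 and Sin3a: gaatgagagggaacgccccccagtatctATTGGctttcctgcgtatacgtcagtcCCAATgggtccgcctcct
Gm11423 and Lig3: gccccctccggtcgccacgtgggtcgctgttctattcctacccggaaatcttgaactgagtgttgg

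The intervals lay at chr11:51220419-51220570 (Platr20), chr11:57801468-57801636 (2010001A14Rik), chr9:57071967-57072039 (Gm10658) and chr11:82781043-82781108 (Gm11423) of GRCm38.p6. RefSeq put the starts 153 bp apart for Platr20 and Gm12569, and GENCODE 55 bp, so the length of the shared stretch depends on the annotation. For Gm10658 and Sin3a, a corepressor gene, both gave 74 bp. Sap30l belongs to a corepressor family, and Lig3 encodes a DNA ligase. Gm10658 and Gm11423 were picked for display after their values were seen.

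Promoter windows of the divergent genes held more CG dinucleotides than those of the other matched genes. RefSeq windows from 250 bases before to 50 after a start were found for 25 of the 33 divergent genes (30 windows) and 49 of the 72 others (63 windows). The median number of CG dinucleotides per window was 14.5 (quartiles 9.5 and 32.75) in divergent genes, 6 (3 and 12.5) in the others and 7 (3 and 20) in all 32851 windows. GGGCGG, searched on both strands, was present in 63.3%, 25.4% and 35.7% of the windows in that order. The same shares were 50%, 50.8% and 37.4% for CCAAT and 6.67%, 12.7% and 13.6% for TATAAA. By GENCODE starts, 23 of the 33 divergent genes lay under 250 bp from the coding start, so their windows can include the coding gene's start. At least 9 pairs had both RefSeq starts in 1 window. The contrast in CG and GGGCGG is therefore not independent of how divergent genes were defined. A match of letters is a description of the window and not a bound site, and windows of 1 gene can overlap.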

How the data were processed

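V6.5 embryonic stem cell RNA went into 1 polyadenylated and 1 ribosomal RNA-depleted library, with the second cDNA strand marked by dUTP, per the labels' protocols. The submitters' processing notes name TopHat and mm9, while the assembly, the TopHat version and the meaning of the prefixes were not given in the sources used here. As deposited by the authors, the data are 1 list in BED format with 12 columns, with positions, strand, name, blocks and a whole-number score (unit score, its meaning not stated), and its header names mm9. No read count was used, so depth is unknown.

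Gaps under 30 bp between blocks were closed. A locus was the set of transcripts of 1 prefix and strand whose spans overlap by at least 1 bp. Loci of the whole list were merged in the same way over all prefixes. Introns were shared when both ends and the strand were identical. Genes were named from GENCODE M21 (GRCm38) by identical runs of intron, exon and intron lengths on the same chromosome and strand, with at least 3 exons, deciding by runs that belong to 1 gene alone. No coordinate was converted. Divergence was read from starts of annotated transcripts. Shares carry Wilson 95% intervals (Python 3.11.15, NumPy 2.4.6, matplotlib 3.10.9). With 1 pooled list no test was possible. The procedures were tested on simulated data.

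The members and the 11 gene lists were chosen with earlier results of these data known. Named genes are those with the most transcripts (10) or exons (10) or the longest spans (5), the 10 divergent genes with the most transcripts, all list members, the genes matched by WHITEHEAD alone (up to 10), the 5 loci with the most transcripts or exons and pairs of WHITEHEAD loci. Other settings tried were the rules for exons, loci, sharing, facing distance, matching, starts and scores.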

Additional observations from a re-analysis of the deposited data

How the results depend on the processing

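Of 27 alternatives, 16 left the value within its interval, or a count within 1.5 times, and 11 moved it. No paired analysis was possible because the list holds no value per library. Among transcripts with a score at or above the median of 19, 65.8% of loci had 3 or more exons and 70.45% of introns were shared. Defining overlap with another prefix by a shared intron gave 44.9% of loci. Head-to-head partners were found for 2.48% of loci up to 1000 bp, 1.86% up to 500 bp and 1.86% with a multi-exon partner. Overlap on the other strand was 10.7% by exons and 9.90% with a multi-exon partner. Divergence was 16.2% by outermost starts. The minus-strand share of unshared 2-exon loci, settings chosen after seeing the data, was 70.7% with no end block under 10 nt and 68.6% with none under 30 nt. The count of loci was 1316 when exons had to overlap and 1545 by shared introns, and genes matched ranged from 122 to 176, the last with a match of 2 introns that was added after seeing the data. Depth could not be assessed, and genes with fewer than 3 exons could not be named.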
